A study of Mus musculus with 29 samples.

Results

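Genes that carry the signal of the B cell receptor inside the cell were followed in sorted mouse pro-B cells. The 9 genes are the kinase genes *Syk*, *Btk* and *Prkcb*, the adaptor genes *Blnk*, *Grb2*, *Dapp1* and *Bank1*, the phospholipase gene *Plcg2* and the exchange factor gene *Vav1*. They were chosen by name for their place in this pathway and matched to the gene symbols of the expression tables, where each of the 9 had 1 entry among the 24732 entries of the tables for wild-type and Pax5(-/-) cells and 1 among the 25588 entries of the tables for Meox2-cre cells. All 9 passed the filter, an average over 1 TPM in either genotype, which left 12066 genes to test. TPM is a transcript level that the authors divided by gene length and scaled so that all libraries have one sum, so levels may be compared between genes.

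The series compares the transcriptomes of C57BL/6 pro-B cells that were sorted by flow cytometry directly from mice. Pax5 is the transcription factor that commits progenitors to the B cell lineage, and 3 libraries came from wild-type and 2 from Pax5(-/-) pro-B cells. Another 3 came from pooled pro-B cells of mice with the genotype label Pax5(+/+) Meox2-cre at the age of 3 weeks, in which Cre recombinase is expressed in all tissues from the *Meox2* locus. The study's sample table lists the last group as heterozygous for *Pax5*, so its *Pax5* genotype is given here only as the label has it. Ages of the wild-type and Pax5(-/-) mice were not given in the sources used here.

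The study's definitions of the sorted cells differ between genotypes. Both are positive for B220 and Kit, while absence of CD2, IgM and IgD is part of the definition of pro-B cells and presence of Ly6D part of that of progenitors without Pax5. A difference between the genotypes can therefore not be told apart from a difference between the gates. In bulk RNA, fewer cells of a type and less RNA per cell can also not be told apart.

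In a B cell, binding of the receptor or of the pre-B cell receptor leads Src family kinases to phosphorylate the tails of Cd79a and Cd79b, on which the kinase Syk docks and becomes active. Syk phosphorylates the adaptor Blnk, also called SLP-65, which then brings Btk and the phospholipase Plcg2 together so that Btk can activate Plcg2. Plcg2 cleaves a membrane lipid into an inositol phosphate that releases calcium and a diacylglycerol that activates protein kinase C beta, the product of *Prkcb*, and through it NF-kappaB. Vav1 loads Rac with GTP, Grb2 couples receptors to the Ras activator Sos, and Dapp1 and Bank1 are adaptors that join PI3 kinase lipids, Lyn and the calcium channels of the endoplasmic reticulum to the receptor. Pro-B cells use this machinery once the pre-B cell receptor appears, and inherited loss of BTK or BLNK in humans blocks B cell development at that point.

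*Blnk* was the only one of the 9 genes with a loss of more than 3-fold in Pax5(-/-) cells. *Plcg2* was the only one with a rise that passed the test. *Blnk* was at 972 ± 174 TPM in wild-type (SD, n = 3) and at 134 ± 41.7 TPM in Pax5(-/-) cells (SD, n = 2), 7.27-fold lower in the ratio of means, and *Plcg2* was at 304 ± 20.3 and 515 ± 35.1 TPM. *Bank1*, *Btk*, *Syk*, *Prkcb* and *Vav1* were lower as well, by 2.66-fold for *Bank1* and by 1.25-fold to 1.64-fold for the others. *Grb2* and *Dapp1* did not pass the test.

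The DNA before the starts of 4 genes is printed here. *Blnk* and *Bank1* fell most, *Plcg2* was the one gene with a rise that passed the test, and *Prkcb* holds the same octamer as *Blnk*. Each is the 250 bases upstream of the RefSeq transcript start in the build GRCm38.p6, 5′ to 3′ on the strand of the gene, with the last base just before the start. *Blnk* lies at chr19:40994222-40994471 on the minus strand, *Bank1* at chr3:136326067-136326316 on the minus strand, *Plcg2* at chr8:117498025-117498274 on the plus strand and *Prkcb* at chr7:122288875-122289124 on the plus strand. Capitals mark the octamer ATTTGCAT, the letters that the POU factors Oct-1 and Oct-2 recognise, and ACTTCC, the core of sites for ETS factors, on either strand.
Blnk: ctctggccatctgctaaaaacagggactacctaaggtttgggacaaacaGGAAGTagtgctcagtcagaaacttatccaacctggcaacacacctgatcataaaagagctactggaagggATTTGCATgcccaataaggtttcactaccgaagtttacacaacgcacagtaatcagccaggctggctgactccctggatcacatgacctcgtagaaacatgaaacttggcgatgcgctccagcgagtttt
Bank1: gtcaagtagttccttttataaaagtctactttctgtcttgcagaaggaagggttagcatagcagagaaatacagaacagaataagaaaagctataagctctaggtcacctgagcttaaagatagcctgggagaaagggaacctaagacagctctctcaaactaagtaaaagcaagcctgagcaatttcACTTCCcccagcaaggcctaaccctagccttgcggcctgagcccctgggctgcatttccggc
Plcg2: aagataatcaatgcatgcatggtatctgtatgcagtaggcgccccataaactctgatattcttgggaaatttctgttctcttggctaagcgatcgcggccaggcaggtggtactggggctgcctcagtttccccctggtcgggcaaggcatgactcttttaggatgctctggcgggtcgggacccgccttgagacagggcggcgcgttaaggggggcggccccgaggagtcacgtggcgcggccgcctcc
Prkcb: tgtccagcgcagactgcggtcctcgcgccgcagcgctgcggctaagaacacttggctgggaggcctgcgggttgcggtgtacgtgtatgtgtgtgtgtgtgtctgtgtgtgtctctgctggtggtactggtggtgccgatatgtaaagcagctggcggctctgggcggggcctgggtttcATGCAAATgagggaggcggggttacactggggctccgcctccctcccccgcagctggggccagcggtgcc
The octamer stands in the windows of *Blnk*, from -130, counted from the transcript start with -1 as the last printed base, and of *Prkcb*, from -70. Among all 32851 windows of this length in the table, 1.60% hold it on either strand. ACTTCC stands, on either strand, in the windows of *Blnk* (from -201), *Bank1* (from -62), *Dapp1* (from -91 and from -10), *Vav1* (from -9) and in 1 of the 2 windows of *Grb2* (from -54), and in 19.7% of all windows. The E box CANNTG is in 10 of the 11 windows of the 9 genes and in 66.2% of all windows, and the core CCCNNGGG of sites for the factor Ebf1 is in those of *Bank1* and *Vav1* and in 11.8% of all. In *Prkcb*, an E box shares letters with the octamer. These motifs were chosen after the sequences had been looked at, a match is no measured binding, and the ChIP-seq samples of the series are not analysed here.

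Each library sums to 1000000 TPM, so its depth in reads is unknown. Relative depths taken from steps among low values were 1, 1.02 and 1.03 in wild-type and 0.855 and 1.54 in Pax5(-/-) libraries. *Pax5* itself was measured at 342, 386 and 391 TPM in wild-type and at 43.0 and 39.1 TPM in Pax5(-/-) libraries. The test was limma on log2(TPM + 0.5), where the added 0.5 damps the change of genes near it, with Benjamini-Hochberg adjustment over all 12066 genes. Across all genes tested, 21.5% were lower and 15.6% higher in Pax5(-/-) cells at an adjusted p-value below 0.05, and the median log2 fold change was -0.12. Of the 9 genes, 6 were lower (*Blnk*, *Bank1*, *Btk*, *Syk*, *Prkcb* and *Vav1*) and 1 was higher, and their median log2 fold change was -0.44. Values of the 2 genotypes did not overlap in 8 of the 9 genes, 7 lower and 1 higher, against 37.4% lower and 26.1% higher without overlap among all genes tested. The study's thresholds, namely an adjusted p-value below 0.05, a change beyond 3-fold and an average over 5 TPM in either genotype, were met on the lower side by *Blnk* alone, and by 3.15% of all genes tested. Without the first Pax5(-/-) library 3 of the 9 genes were lower and without the second 1, and *Blnk* and *Plcg2* passed in both cases. Calls fell across all genes in these fits, to 990 of 12080 lower without the first and 825 of 12081 without the second, from 2596 of 12066.

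**Figure D1:**
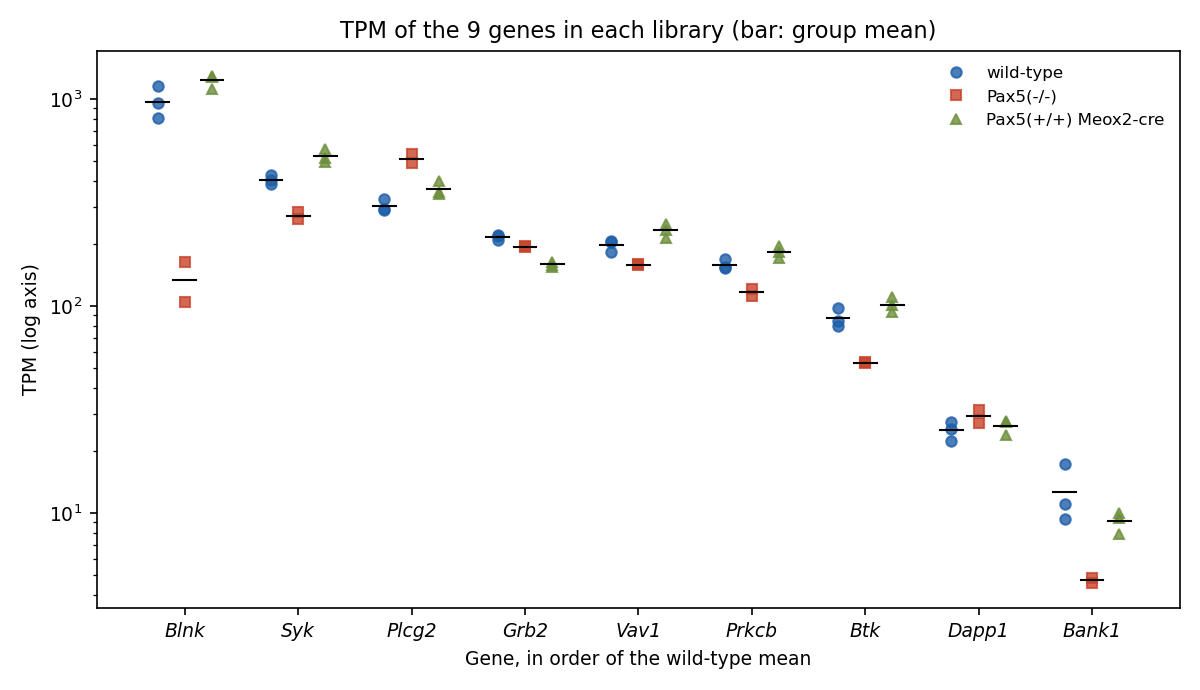
TPM of each of the 9 genes (log axis) in the 3 wild-type, 2 Pax5(-/-) and 3 Pax5(+/+) Meox2-cre libraries, each point being 1 library and each bar the mean of its group. The Pax5(-/-) points of *Blnk* (163 and 104 TPM) lie far below the wild-type points (808 to 1154 TPM), those of *Plcg2* lie above them, and the Meox2-cre tables were normalized separately.

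Syk, the kinase that starts the cascade, was encoded by the second most abundant transcript of the 9 in wild-type cells. *Syk* (mm9 chromosome 13 from 52678542 to 52744161, plus strand, annotated there as Sykb) was measured at 387, 407 and 431 TPM in wild-type and at 283 and 263 TPM in Pax5(-/-) libraries. Both Pax5(-/-) values were below every wild-type value. The log2 fold change was -0.58 (standard error 0.10, limma adjusted p = 0.0033), and without the second Pax5(-/-) library the adjusted p-value was 0.0623.

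*Btk* (mm9 chromosome X from 131076875 to 131118109, minus strand) encodes the Tec family kinase that acts on Plcg2. Its values were 79.8, 84.8 and 97.8 TPM in wild-type and 53.8 and 52.8 TPM in Pax5(-/-) libraries, again without overlap. *Btk* fell by 0.70 on the log2 scale (standard error 0.12, limma adjusted p = 0.0036), with an adjusted p-value of 0.0604 once the second Pax5(-/-) library was left out.

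*Prkcb* (mm9 chromosome 7 from 129432265 to 129777916, plus strand) encodes the protein kinase C that links diacylglycerol to NF-kappaB in B cells. It was measured at 153, 168 and 154 TPM in wild-type and at 120 and 112 TPM in Pax5(-/-) libraries. The groups did not overlap, and the log2 fold change of -0.44 (standard error 0.10) passed the test with all libraries (limma adjusted p = 0.011). The call was lost without the first (adjusted p = 0.0649 from limma) and without the second Pax5(-/-) library (0.116).

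*Blnk* (mm9 chromosome 19 from 41003417 to 41069025, minus strand), whose promoter window with the octamer is printed above, had the highest level of the 9 genes in wild-type cells. Its values were 808, 1154 and 955 TPM in wild-type and 163 and 104 TPM in Pax5(-/-) libraries. The lowest wild-type value was thus several times the higher Pax5(-/-) value. The log2 fold change was -2.88 (standard error 0.21, 95% interval from -3.37 to -2.38, limma adjusted p = 8.3e-05), and it passed the test in all 14 alternative fits, with values from -3.20 to -2.56. Among all entries of a library, ordered from the highest TPM down, *Blnk* stood at places 163, 86 and 117 in wild-type and at places 1159 and 1813 in Pax5(-/-) libraries.

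*Bank1* (mm9 chromosome 3 from 135716327 to 135989030, minus strand), which encodes a scaffold for Lyn and calcium channels in B cells, was the least abundant of the 9. Its values were 17.2, 11.1 and 9.38 TPM in wild-type and 4.61 and 4.82 TPM in Pax5(-/-) libraries. The first wild-type library stood well above the others, and each was above both Pax5(-/-) libraries. The log2 fold change of *Bank1* was -1.28 (standard error 0.26, limma adjusted p = 0.0083), and with 1 Pax5(-/-) library left out the adjusted p-value was 0.0970 without the first and 0.0994 without the second.

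*Grb2* (mm9 chromosome 11 from 115505359 to 115569911, minus strand) and *Dapp1* (chromosome 3 from 137593971 to 137644509, minus strand) encode the other two adaptors. *Grb2*, an adaptor used in most cells, was measured at 207, 217 and 221 TPM in wild-type and at 193 and 194 TPM in Pax5(-/-) libraries. These groups did not overlap, but the moderated test, which draws the error of a gene towards that of others at its level, was not passed (log2 fold change -0.15, standard error 0.09, 95% interval from -0.36 to 0.06, limma adjusted p = 0.216). *Dapp1*, also called Bam32, was measured at 22.3, 25.5 and 27.4 TPM in wild-type and at 27.1 and 31.5 TPM in Pax5(-/-) libraries, which overlapped. Its log2 fold change was 0.22 (95% interval from -0.12 to 0.57, limma adjusted p = 0.266).

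*Plcg2* (mm9 chromosome 8 from 120022191 to 120159040, plus strand), whose printed window holds neither the octamer nor ACTTCC on either strand, encodes the phospholipase that makes the second messengers of the receptor. It was measured at 328, 295 and 290 TPM in wild-type and at 540 and 490 TPM in Pax5(-/-) libraries. Both Pax5(-/-) values were above every wild-type value, a direction opposite to that of its upstream adaptor *Blnk* and of its kinase *Btk*. The log2 fold change was 0.76 (standard error 0.10, limma adjusted p = 0.0013), and it was past the threshold in all 14 alternative fits, with values from 0.69 to 0.87. Its place among all entries changed from between 560 and 636 in wild-type to 248 and 273 in Pax5(-/-) libraries.

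*Vav1* (mm9 chromosome 17 from 57418523 to 57468659, plus strand), the exchange factor gene for Rac in blood cells, showed the smallest change among the genes that passed. It was measured at 183, 207 and 205 TPM in wild-type and at 158 and 159 TPM in Pax5(-/-) libraries, without overlap. The log2 fold change was -0.32 (standard error 0.10, limma adjusted p = 0.038). This call was lost in 7 of 14 alternative fits, among them rescaling by median ratios (log2 fold change -0.21, limma adjusted p = 0.131) and quantile normalization (-0.24, 0.0733), which moved the median of all genes from -0.12 to -0.01 and -0.02. Without the first Pax5(-/-) library the adjusted p-value of *Vav1* was 0.181, without the second it was 0.183, and without wild-type library 2 or 3 it was 0.0863 or 0.0643.

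The 2 opposite changes, of *Blnk* and *Plcg2*, set the makeup of the 9 transcripts in each genotype. *Blnk* held 37.0, 44.9 and 40.0% of the summed TPM of the 9 genes in wild-type and 10.6 and 7.38% in Pax5(-/-) libraries. *Plcg2* held 15.0, 11.5 and 12.1% in wild-type and 35.0 and 34.7% in Pax5(-/-) libraries. The share of *Syk* varied less, with 15.8 to 18.0% in wild-type and 18.4 and 18.6% in Pax5(-/-) libraries. The summed TPM was 2185, 2570 and 2390 in wild-type and 1542 and 1412 in Pax5(-/-) libraries. Without *Blnk*, the other 8 genes summed to 1377, 1415 and 1435 TPM in wild-type and to 1379 and 1307 TPM in Pax5(-/-) libraries, so that these ranges overlapped. The 8 include *Plcg2*, which rose, and *Syk*, *Btk*, *Prkcb*, *Bank1* and *Vav1*, which fell. The overlap of the sums therefore does not mean that these genes were unchanged.

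**Figure D2:**
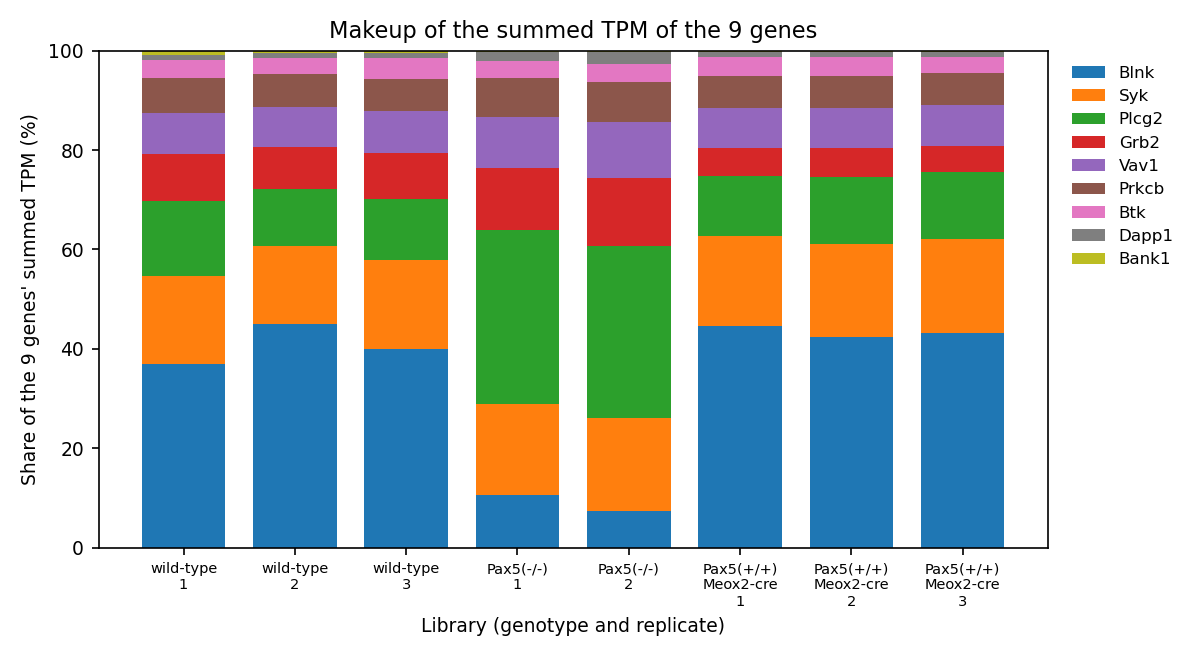
Share of each of the 9 genes in their summed TPM (%), with 1 bar for each wild-type, Pax5(-/-) and Pax5(+/+) Meox2-cre library. *Blnk* makes up 37.0 to 44.9% of the wild-type bars and 10.6 and 7.38% of the Pax5(-/-) bars, where *Plcg2* makes up 35.0 and 34.7%.

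In wild-type cells, the mean levels fell in the order *Blnk*, *Syk*, *Plcg2*, *Grb2*, *Vav1*, *Prkcb*, *Btk*, *Dapp1* and *Bank1*, and the libraries of no 2 neighbours in this order overlapped. In Pax5(-/-) cells the order was *Plcg2*, *Syk*, *Grb2*, *Vav1*, *Blnk*, *Prkcb*, *Btk*, *Dapp1* and *Bank1*. There, *Blnk* overlapped with both its neighbours, *Vav1* and *Prkcb*. *Blnk* thus moved from place 1 to place 5, while *Btk*, *Dapp1* and *Bank1* were the last 3 in both genotypes.

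The pro-B cells of the Meox2-cre mice offered a second set of libraries from cells labelled with intact *Pax5*, but were aligned to another build (mm10) with another aligner and normalized separately. Their values are given without a test. *Blnk* was again the highest of the 9, with 1285, 1118 and 1291 TPM, and *Syk* followed with 518, 493 and 572 TPM. *Plcg2* was measured at 348, 356 and 401 TPM, and *Vav1* at 233, 214 and 248 TPM. Thus the 3 genes that led in wild-type cells led here in the same order, and no 2 neighbours among all 9 overlapped.

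*Prkcb* was measured at 183, 171 and 194 TPM and *Grb2* at 163, 155 and 158 TPM in Meox2-cre libraries, so that *Grb2* stood in place 6, behind *Vav1* and *Prkcb*. *Btk* was measured at 110, 101 and 93.9 TPM, *Dapp1* at 27.4, 23.9 and 27.7 TPM and *Bank1* at 9.48, 7.92 and 10.03 TPM. *Btk*, *Dapp1* and *Bank1* were once more the last 3. *Blnk* held 43.4 ± 1.19% and *Plcg2* 13.0 ± 0.775% (SD, n = 3 for both) of the summed TPM of the 9 genes.

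Most of the 9 proteins belong to families whose other members do the same step in T cells, myeloid cells or most tissues, and 21 such counterparts were examined with the same test. Of these, 18 passed the filter on low values, and in Pax5(-/-) cells 9 were lower, 4 were higher and 5 did not pass. Among all genes tested, 21.5% were lower and 15.6% higher. The median log2 fold change of the 18 was -0.34. Of the called ones, *Clnk* passed the filter only through its Pax5(-/-) values, and *Lcp2* and *Prkcq* only through their wild-type values. *Txk* and *Bmx*, which encode Tec family kinases, stayed below 0.1 TPM in all 5 libraries and were not tested. Without the second Pax5(-/-) library, 5 were lower and 2 higher.

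Plcg1, the phospholipase of T cells and many other tissues, showed the opposite change to Plcg2. *Plcg1* was measured at 121, 156 and 156 TPM in wild-type and at 96.6 and 84.3 TPM in Pax5(-/-) libraries (log2 fold change -0.66, limma adjusted p = 0.0096, but 0.0586 and 0.128 without the first or second Pax5(-/-) library). The log2 ratio of *Plcg2* to *Plcg1*, which does not depend on the scaling of a library, was 1.44, 0.92 and 0.89 in wild-type and 2.47 and 2.53 in Pax5(-/-) libraries. It was higher in both Pax5(-/-) libraries by 1.42 on average. The exact two-sided permutation test over the 10 possible assignments of genotype to 5 libraries gave p = 0.1, the smallest it can give, and 0.142 after adjustment over the 17 ratios examined, so no ratio could pass a threshold of 0.05.

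Lcp2, or SLP-76, which does in T and myeloid cells what Blnk does in B cells, was far below *Blnk* in both genotypes. *Lcp2* was measured at 4.88, 10.7 and 5.70 TPM in wild-type and at 0.487 and 0.318 TPM in Pax5(-/-) libraries (log2 fold change -3.004, limma adjusted p = 6.7e-04). The log2 ratio of *Blnk* to *Lcp2* differed by 0.13 between genotypes, with overlapping libraries, and by 0.89 or -0.41 with a pseudocount of 0.1 or 1, so that its direction is not fixed. *Clnk*, another gene of this family, was listed at 0.08, 0 and 0.0773 TPM in wild-type and at 0.748 and 2.23 TPM in Pax5(-/-) libraries. With averages of 0.0524 and 1.49 TPM, *Clnk* passed the filter only through its Pax5(-/-) values. It was not tested without the second Pax5(-/-) library. Its log2 fold change of 1.74 (limma adjusted p = 0.012) thus rests on values near the filter and on that library. *Lat*, the membrane adaptor of T cells, spanned 19.6 to 53.1 TPM in wild-type and lay within that range, at 44.2 and 43.0 TPM, in Pax5(-/-) libraries, and its entry carries a mark taken here to mean an overlapping gene.

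The protein kinase C genes moved in both directions. *Prkca*, which encodes a conventional, calcium-dependent isoform like *Prkcb*, rose from 10.3, 9.90 and 10.97 TPM in wild-type to 31.6 and 30.0 TPM in Pax5(-/-) libraries (log2 fold change 1.52, limma adjusted p = 2.5e-04). *Prkcd*, which was slightly more abundant than *Prkcb* in wild-type cells, fell from 180, 178 and 211 TPM to 103 and 97.9 TPM (log2 fold change -0.91, limma adjusted p = 8.3e-04). *Prkcq*, the isoform of T cell receptor signalling, fell from 4.51, 8.92 and 6.65 TPM to 0.894 and 0.866 TPM (-2.33, limma adjusted p = 0.0011).

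*Prkch* was measured at 24.6, 38.0 and 27.7 TPM in wild-type and at 51.3 and 41.0 TPM in Pax5(-/-) libraries (log2 fold change 0.62, limma adjusted p = 0.045), and *Prkce*, with a log2 fold change of 0.46, did not pass (limma adjusted p = 0.094). *Prkcb* was thus above *Prkca* by 3.87 on the log2 scale in wild-type and by 1.90 in Pax5(-/-) libraries.

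Zap70, the T cell counterpart of Syk, was low beside it in both genotypes. *Zap70* was measured at 14.9, 17.7 and 21.9 TPM in wild-type and at 9.51 and 9.59 TPM in Pax5(-/-) libraries (log2 fold change -0.88, limma adjusted p = 0.011). *Tec*, the founding kinase of the family of Btk, overlapped between genotypes, with 16.7 to 28.7 TPM in wild-type and 19.1 and 16.8 TPM in Pax5(-/-) libraries (log2 fold change -0.22, limma adjusted p = 0.48).

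Pik3ap1, or BCAP, an adaptor for PI3 kinase with a domain structure like that of Bank1, was the counterpart with the largest absolute change after *Lcp2*. *Pik3ap1* was measured at 509, 573 and 465 TPM in wild-type and at 82.7 and 80.4 TPM in Pax5(-/-) libraries (log2 fold change -2.65, limma adjusted p = 7.6e-06). *Pik3ap1* fell more than *Bank1*, and the log2 ratio of *Bank1* to *Pik3ap1* was higher by 1.37 in Pax5(-/-) libraries.

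The relatives of Grb2 moved apart from it. *Grap2*, or Gads, the Grb2 relative that joins SLP-76 to LAT, rose from 10.6, 12.0 and 12.4 TPM in wild-type to 66.6 and 58.3 TPM in Pax5(-/-) libraries (log2 fold change 2.37, limma adjusted p = 3.3e-05), with an entry marked as an overlap. *Grap*, the other relative, fell from 103, 121 and 113 TPM to 79.0 and 84.7 TPM (-0.45, limma adjusted p = 0.016).

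Of the relatives of Dapp1 that also bind PI3 kinase lipids, *Plekha2* fell from 283, 306 and 285 TPM in wild-type to 123 and 128 TPM in Pax5(-/-) libraries (log2 fold change -1.21, limma adjusted p = 9.5e-05). *Plekha1* had a log2 fold change of 0.15 with overlapping libraries and an entry marked as an overlap (limma adjusted p = 0.57). *Vav2* fell from 45.0, 50.0 and 47.5 TPM to 31.6 and 26.5 TPM (log2 fold change -0.71, limma adjusted p = 0.0049), and *Vav3* had a log2 fold change of 0.06 (limma adjusted p = 0.87). The calls of *Zap70* and *Grap* were lost without either Pax5(-/-) library and that of *Vav2* without the second, whereas *Prkce* passed after rescaling by median ratios or quantiles. That of *Prkch* was lost in 6 of 14 alternative fits, among them those without wild-type library 1 or 3 and without either Pax5(-/-) library.

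**Figure D3:**
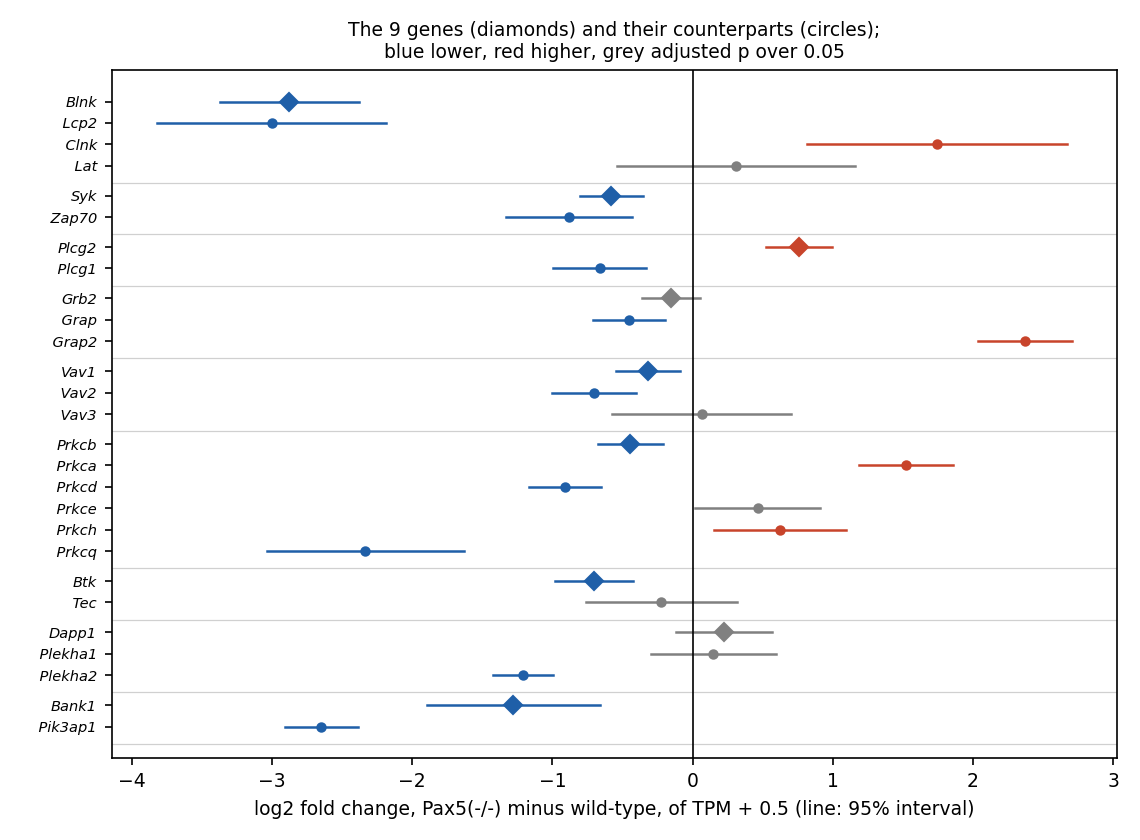
Log2 fold change of log2(TPM + 0.5) between Pax5(-/-) and wild-type cells, with its 95% interval as a line, for the 9 genes (diamonds) and below each its counterparts that were tested (circles). Blue marks genes lower and red genes higher at an adjusted p-value below 0.05, and *Plcg2* (0.76) and *Plcg1* (-0.66) lie on opposite sides of 0, as do *Prkcb* (-0.44) and *Prkca* (1.52).

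The remainder of the pathway was described with a list of 70 genes in 8 roles, of which 69 were tested. Of these, 24 were lower and 10 higher in Pax5(-/-) cells and 35 did not pass, against 21.5% lower and 15.6% higher among all genes tested. Counts within a role rest on few genes and were not tested against these shares. The median log2 fold change of the list was -0.20. Without the first Pax5(-/-) library 10 were lower and 8 higher, and without the second 9 and 6. Within this list, all decreases of more than 2 on the log2 scale stood at the receptor chains and co-receptors, above the 9 genes in the pathway. Of the 6 chains of the receptor and of the pre-B cell receptor, 5 were lower, with *Cd79a*, the signalling chain to which Syk binds, at 4817, 5449 and 3670 TPM in wild-type and 542 and 608 TPM in Pax5(-/-) libraries (log2 fold change -2.996, limma adjusted p = 2.6e-05). *Vpreb1* (-2.58) and *Igll1* (-2.20), which form the surrogate light chain, followed.

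Of the 6 co-receptor genes tested, 5 were lower, all of them also by the study's thresholds. They included the inhibitory receptor genes *Cd72* (log2 fold change -6.37, limma adjusted p = 1.4e-06, entry marked as an overlap) and *Siglecg* (-5.22, limma adjusted p = 4.6e-06). *Cr2*, at most 0.140 TPM in the 5 libraries, was not tested.

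The Src family genes, whose products phosphorylate the receptor before Syk binds, moved in both directions, with 3 of 7 lower and 2 higher. *Fgr* rose from 0.303, 1.23 and 1.32 TPM in wild-type to 10.8 and 11.5 TPM in Pax5(-/-) libraries (log2 fold change 3.10, limma adjusted p = 8.6e-04), and *Lck*, the Src family kinase of T cells, had a log2 fold change of 1.58 (entry marked as an overlap). With a wild-type average of 0.949 TPM, *Fgr* passed the filter only through its Pax5(-/-) values. Among the 12 other adaptors, 2 were lower and 3 higher. *Lat2*, or NTAL, a membrane adaptor that resembles LAT and binds Grb2, rose from 5.604, 5.79 and 5.93 TPM to 46.2 and 54.5 TPM (3.01, limma adjusted p = 1.8e-05), *Gapt*, which binds Grb2, had a log2 fold change of 1.55, and *Gab1*, an adaptor that binds Grb2 and PI3 kinase, one of -1.39.

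Below the 9 genes, calls were found in both directions. None of the 6 phosphatase genes passed the limma test at an adjusted p-value below 0.05. Of the 4 genes of PI3 kinase and Akt, the regulatory subunit gene *Pik3r1* rose (38.7, 40.9 and 50.3 TPM in wild-type, 143 and 106 TPM in Pax5(-/-) libraries, log2 fold change 1.505) and the catalytic subunit gene *Pik3ca* fell by 0.71 on the log2 scale. Of 16 genes downstream of protein kinase C and calcium, 6 were lower and 3 higher, among them *Itpr1* (1.38), a calcium channel of the endoplasmic reticulum opened by the product of Plcg2, *Bcl10* (-0.77), which carries the signal of protein kinase C beta to NF-kappaB, and *Itpr3* (-0.66, entry marked as an overlap). Of 12 genes of the Ras, Rac and ERK branch, 2 were lower and 1 higher, with *Rasgrp3*, a Ras activator that diacylglycerol recruits, at 4.70, 5.52 and 4.67 TPM in wild-type and 21.8 and 27.9 TPM in Pax5(-/-) libraries (2.21, limma adjusted p = 1.7e-04). Of the genes named from this list, *Gab1* lost its call without either Pax5(-/-) library, and *Gapt* and *Itpr3* without the second. That of *Pik3ca* was lost in 5 of 14 alternative fits, among them those without wild-type library 2 or 3 and without either Pax5(-/-) library.

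**Figure D4:**
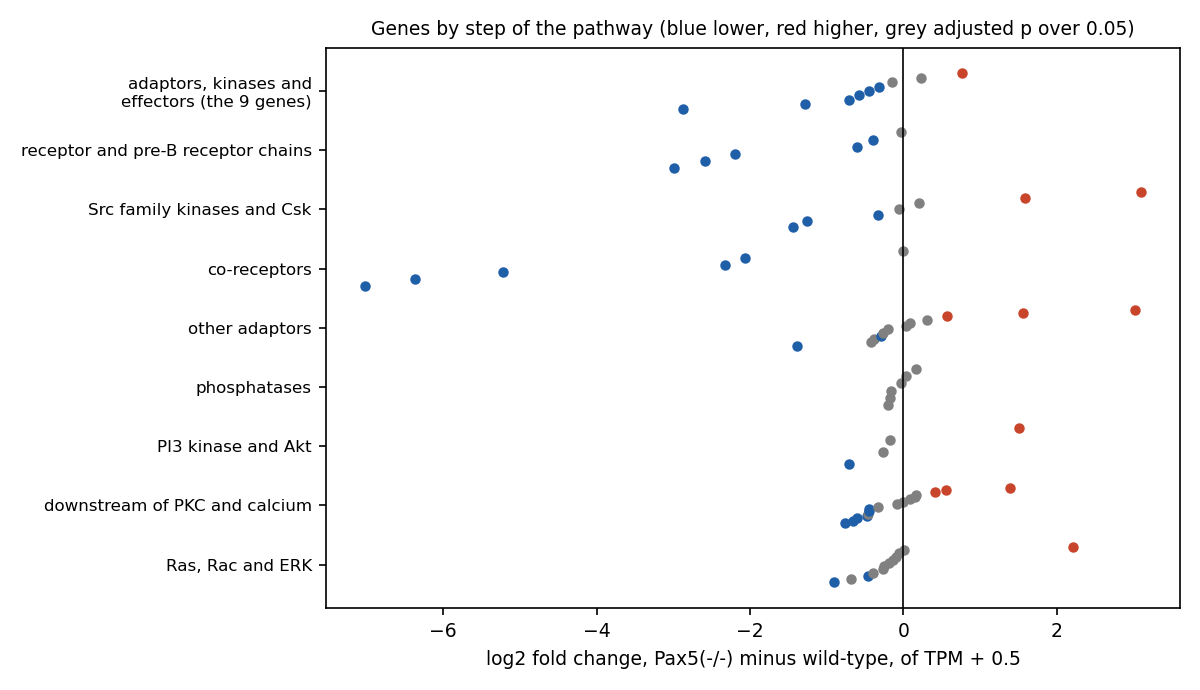
Log2 fold change between Pax5(-/-) and wild-type cells (log2(TPM + 0.5)) of the 9 genes and of the 69 tested genes of the pathway list, arranged by role, with blue for lower, red for higher and grey for genes with an adjusted p-value over 0.05. The co-receptor gene *Cd72* lies at -6.37, most of the 9 genes lie between -1.28 and 0.76, and *Blnk* lies at -2.88 among the receptor chains.

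The genes whose profile over the 5 libraries was closest to that of a member were found among 9765 genes above 5 TPM, by the Euclidean distance of log2(TPM + 0.5) after centring each gene on its mean. For *Blnk* these were *Parvb* (distance 0.30), *Phlda1* (0.31) and *E2f2* (0.36), with log2 fold changes of -3.01, -2.79 and -2.83. For *Bank1* they were *Cd5* (0.21), *Serpinf1* (0.23) and *Tubb2b* (0.28), which shared its highest value in the first wild-type library. *Plcg2* was closest to *Ergic1*, *Hist1h4h* and *Hspbp1*, at distances of 0.07 to 0.08.

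The members with smaller changes had closer neighbours. *Syk* was nearest to *Gtse1*, *Nup50* and 4632434I11Rik (0.03 to 0.06), *Btk* to *Ak3*, *Impa1* and *Brms1l* (0.04 to 0.06), *Prkcb* to *Ptpn7*, *Clec16a* and *Adrbk1* (0.03 to 0.06), and *Vav1* to *Vps26a*, *Fkbp15* and *Cggbp1* (0.02 to 0.04). None of these neighbours is in the pathway list.

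Marker lists of other cell types were read beside these results, since several of the 9 genes are also used by myeloid, NK or T cells. The 7 T cell markers summed to 9.05 to 13.3 TPM in wild-type and 7.57 to 10.1 TPM in Pax5(-/-) libraries, and the 4 NK cell markers to 8.03 to 14.6 and 4.80 to 8.39 TPM. The 7 myeloid markers summed to 45.9 to 252 TPM in wild-type, 55.4 to 83.7 TPM in Pax5(-/-) and 440 to 1217 TPM in Meox2-cre libraries. The 3 markers of plasmacytoid dendritic cells summed to 83.1 to 124 TPM in wild-type and 122 to 173 TPM in Pax5(-/-) libraries. These sums overlapped between wild-type and Pax5(-/-) libraries, but single markers in them moved in both directions. *Cd4* (0.534 and 4.93 TPM on average in wild-type and Pax5(-/-) cells), *Gzma* (0.523 and 4.30 TPM) and *Siglech* (0.106 to 1.12 TPM in wild-type, 1.79 and 9.06 TPM in Pax5(-/-) libraries) were higher at a limma adjusted p-value below 0.05. However, *Cd4*, *Gzma* and *Siglech* passed the filter on low values only through their Pax5(-/-) averages, so the filter itself favoured a rise. Markers low in both genotypes, among them *Cd3e*, *Cd8a*, *Ncr1* and *Ccr9*, were not tested. *Cd5*, which made up most of the T cell sum in wild-type cells, was lower, as were *Klrb1c*, *Prf1*, *Itgam* and *Elane*, and *Bst2*, which made up most of the plasmacytoid dendritic cell sum, did not pass.

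The 5 markers of mature B and plasma cells were lower in sum in Pax5(-/-) libraries (27.8 to 31.1 against 63.2 to 98.1 TPM), as were the 6 erythroid markers (7.28 to 57.8 against 70.6 to 175 TPM), of which *Hba-a2* and *Hbb-b1* were listed at 0 in all 5 libraries. Of the 12 pro-B markers, 6 of which are also in the pathway list, 8 were lower, with sums of 4589 to 4905 TPM against 13526 to 16123 TPM, and *Blnk*, *Bank1*, *Btk*, *Syk*, *Prkcb* and *Vav1* fell alongside them. The part of these cell types in the changes of the 9 genes was not tested.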

How the data were processed

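RNA-seq tables of 3 wild-type, 2 Pax5(-/-) and 3 Pax5(+/+) Meox2-cre pro-B libraries were used. According to the study's methods, the authors selected poly(A) RNA and made cDNA with random hexamers. For the wild-type and Pax5(-/-) libraries, ribosomal reads were discarded, and TopHat 1.4.1a (mm9) and featureCounts 1.5.0 with an edited refGene annotation gave reads per gene. Meox2-cre reads went through STAR 2.4.2a (mm10) instead. The deposited TPM values were calculated by the authors from these reads and gene lengths, the deposited tables hold no counts, and the strand was not used in the counting as far as the sources used here tell.

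R 4.3.3 and limma 3.58.1 (eBayes with trend, no covariates) were used on log2(TPM + 0.5) to compare genotypes, for genes averaging over 1 TPM in either genotype. DESeq2, which the authors used, needs counts. The fit was tested on simulated data. Replicates are separate samples by their labels, which do not name the mice, so p-values measure the spread between these samples. Ratios were compared with exact two-sided permutation tests in Python 3.11.15. The members, lists and tests were chosen with earlier results of these data known. Named genes were the 9 genes, their counterparts, *Pax5*, in each role of the pathway list the 3 genes of largest change that passed without overlap, and the 3 genes of nearest profile. Positions are from GENCODE for mm9, and promoter windows from RefSeq (GRCm38.p6, all 9 genes matched). The alternatives were other pseudocounts, filters, eBayes settings and scalings, and each library left out in turn. The ChIP-seq samples are not analysed here, and some genes that this rule names are not reported here.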

Additional observations from a re-analysis of the deposited data

How the results depend on the processing

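The direction of all 9 genes held in the 14 alternative fits. The calls of *Blnk* and *Plcg2* held in all 14, those of *Syk* and *Btk* in 13, those of *Prkcb* and *Bank1* in 12 and that of *Vav1* in 7, while *Grb2* and *Dapp1* passed in none. Leaving out each library in turn gave 1 to 6 of the 9 genes lower, 9 to 25 genes of the pathway list lower and 6 to 10 higher, and 5 to 9 counterparts lower and 2 to 4 higher, while the lower calls among all genes ranged from 825 to 3233 in the same fits. The low ends came from leaving out the second Pax5(-/-) library, after which 1 Pax5(-/-) library was left and was assumed to vary like the others. With a 2-fold in place of a 3-fold threshold, 2 of the 9 genes, *Blnk* and *Bank1*, met the study's other thresholds on the lower side. Among the ratios, that of *Blnk* to *Lcp2* moved from 0.13 to 0.89 and -0.41 with pseudocounts of 0.1 and 1 and that of *Prkcb* to *Prkcq* from 1.89 to 2.29 with 0.1. Without the first or second Pax5(-/-) library, the difference in ratio was -2.42 and -2.62 for *Grb2* to *Grap2*, 0.33 and -0.17 for *Dapp1* to *Plekha1* and 0.52 and 0.26 for *Vav1* to *Vav2*. No paired analysis was possible because no replicate number is given to any library by its label. The depth in reads is unknown, and 2 Pax5(-/-) libraries allow no p-value below 0.1 in an exact permutation test.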
